A study of Rattus norvegicus with 115 samples.

Results

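The genes described here are 4 complement components, C1qa, C1qb, C1s and C3, together with Serping1, which encodes C1 inhibitor. They are 5 of the 14217 genes measured. A gene was taken when a probe set was annotated to exactly 1 of these symbols, and each gene had 1 such probe set among the 31099 on the array (1376652_at for C1qa, 1370215_at for C1qb, 1387893_at for C1s, 1368000_at for C3 and 1372254_at for Serping1). Probe sets were matched by gene name and by no measured difference. The 5 genes themselves were chosen with earlier results of these data known, so they are no unbiased sample of all genes. By the labels the 60 donors were Fisher rats that carried a graft of 9L, a cultured rat glioblastoma line, in the right caudate nucleus, and RNA came from the tumour (59 arrays) or from the contralateral region of the brain (56 arrays). Irradiation followed 10 days after implantation, and untreated rats carried the same graft. MRT rats received microbeam radiation, an array of narrow synchrotron beams with 400 Gy in the beams and 18 Gy in the valleys between them, and BB rats received a broad beam of about 17 Gy. MRT tumours numbered 9, 8, 7 and 4 at 6 h, 48 h, 8 d and 15 d, BB tumours 6, 4, 4 and 4, and untreated tumours 5, 4 and 4 up to 8 d. Contralateral arrays numbered 9, 7, 6 and 4 after MRT, 6, 3, 4 and 4 after BB, and 5, 4 and 4 untreated. There were no untreated arrays at 15 d. The graft is a single cell line. The labels do not say which volume of the contralateral brain lay in the beams.

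Complement is a cascade of plasma and tissue proteins that marks cells and debris for removal. In the classical pathway C1q, built from chains encoded by C1qa, C1qb and C1qc, binds a surface, and the proteases C1r and C1s attached to it then cut the next components until C3 is cleaved and its fragment coats the target. C1 inhibitor, the product of Serping1, is a serpin that inactivates C1r and C1s. In brain, C1q chains are known to come mostly from microglia and macrophages, and C3 is known to be induced in reactive glia.

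The windows just before the start sites are shown for C1qa, C1qb and C3, since the RefSeq promoter set held no entry for C1s or Serping1. Each window holds the 120 bases before the RefSeq start on the gene's own strand, the minus strand, of build GRCr8. It lies at chr5:154419934-154420053 for C1qa, chr5:154407828-154407947 for C1qb and chr9:2201340-2201459 for C3. Capitals mark matches to any of 4 short motifs searched on both strands.
C1qa: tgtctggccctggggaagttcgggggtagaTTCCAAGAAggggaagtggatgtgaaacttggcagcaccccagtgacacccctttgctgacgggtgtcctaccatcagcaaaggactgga
C1qb: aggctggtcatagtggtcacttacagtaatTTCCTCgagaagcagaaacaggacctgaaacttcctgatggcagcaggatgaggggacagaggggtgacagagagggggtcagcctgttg
C3: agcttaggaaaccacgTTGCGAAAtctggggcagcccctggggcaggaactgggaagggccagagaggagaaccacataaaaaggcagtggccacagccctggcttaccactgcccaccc
C1qa held a match to TTCNNNGAA, the pattern bound by STAT factors, 90 bases before the start, and 3.41% of 33469 rat promoter windows of this length held that pattern. C1qb held GAGGAA, a core bound by the myeloid factor PU.1, also 90 bases before its start and on the opposite strand (11.7% of windows). C3 held TTGCNNAA, a C/EBP-like pattern, 104 bases before the start (4.17% of windows). The interferon-type pattern GAAANNGAA (3.81% of windows) was not in these 3 windows. No match overlapped another. A match is a string of letters and no measurement of binding. On the RefSeq chromosome maps C1qa and C1qb lie on either side of C1qc, and C1s lies beside C1r.

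Values are the authors' normalized intensities, linear numbers that were taken to log2 for testing. A difference between groups is given in log2 units with ± its standard error, and a gene is said to have risen or fallen where limma, fitted over all 14217 genes, gave an adjusted p under 0.05. The share of all genes called in the same comparison stands beside each first count. Each array is from a separate numbered rat for its tissue. No probe set was at 0, since the lowest value was 7. The markers fit the labels in the main: the mean log2 of 12 neuron markers was 7.26 to 11.7 in tumours and 11.8 to 12.5 in contralateral brain, and that of 8 mitosis markers was 8.04 to 11.5 in tumours. Contralateral mitosis means were 5.52 to 7.17, except in rat 30 (untreated, 8 d), rat 57 (BB, 8 d) and rats 59, 60 and 61 (BB, 15 d), where they were 7.59 to 8.92. The untreated contralateral array of rat 18 (48 h) had the highest array median, 165. Of the 4 untreated brains of 48 h it had the lowest C1s (79) and C1qa (566). It also had the highest C1qb (863), C3 (246) and Serping1 (322) of them, and it enters every 48 h difference from untreated brain. The 35 BB arrays were described separately and their processing notes differ, so the broad beam and that separate handling cannot be told apart. In bulk tissue, fewer cells of a type and less RNA per cell cannot be told apart.

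In untreated rats all 5 genes were higher in tumour than in contralateral brain. Averaged over the 3 times, C1s differed most, by 3.21 ± 0.15 (9.25-fold), followed by C3 (1.86 ± 0.31), Serping1 (1.44 ± 0.23), C1qb (1.37 ± 0.19) and C1qa (1.31 ± 0.15), with adjusted p from 6.7e-36 to 5.46e-08. In this comparison 40.5% of all genes were higher in tumour, so a rise by itself was common. At 6 h the C1s intensity was 1414, 1747, 1901, 2001 and 2107 in untreated tumours, against 192, 199, 225, 226 and 237 in untreated contralateral brain. Those groups are far apart. C1r, the protease that activates C1s, was higher in tumour by 3.00 ± 0.14, and C1qc, the third C1q chain, by 1.65 ± 0.18. Of the 11 macrophage and monocyte markers 9 were higher in tumour, of 7 microglia markers 2, and of 12 interferon response genes 12, and their part in the result was not tested.

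**Figure D1:**
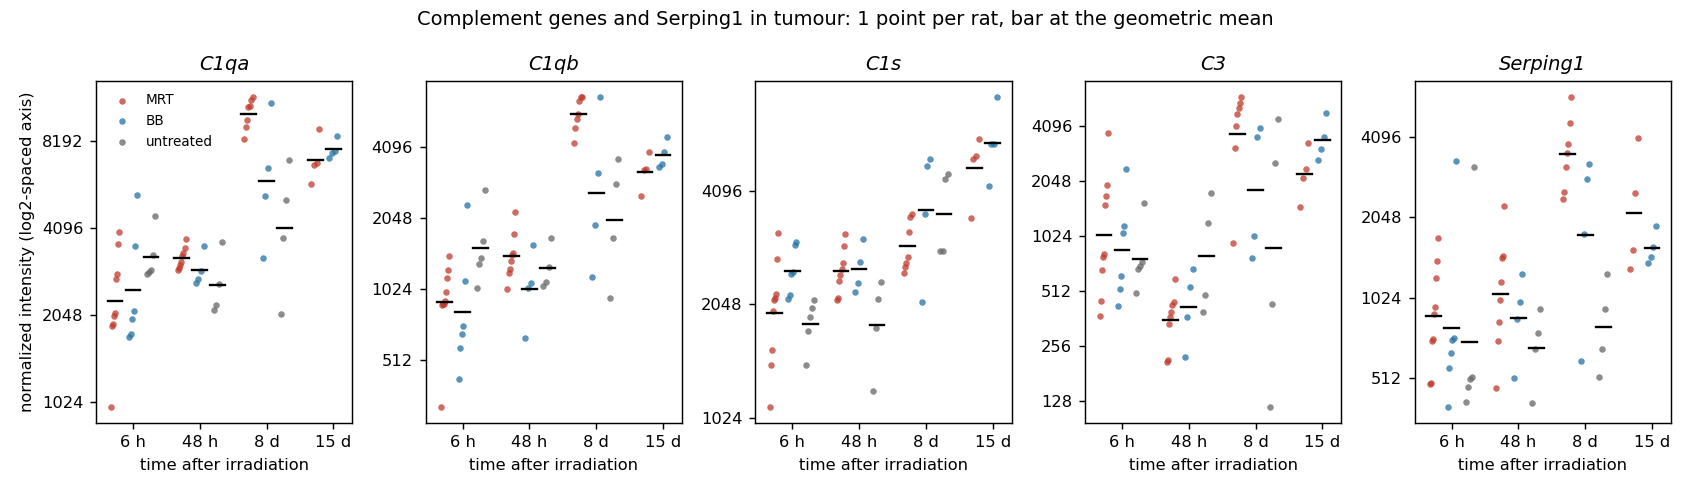
Normalized intensity (log2-spaced axis) of the 5 genes in tumours against time after irradiation, 1 point per rat, with MRT, BB and untreated tumours side by side and a bar at each geometric mean. The 7 MRT tumours at 8 d lie above the 4 untreated ones for C1qa, C1qb and Serping1, whereas C1s overlaps.

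In tumours the first 2 days brought no call for any of the 5 genes, and at 8 d after MRT 4 of them rose. At 6 h after MRT 0 of 5 rose (1.01% of all genes did) and 0 fell (0.408%) by limma's adjusted threshold, although 2 had an unadjusted p under 0.05, C1qa (−0.51 ± 0.24) and C1qb (−0.76 ± 0.31), both lower. At 48 h after MRT again 0 of 5 rose (1.86%) and 0 fell (0.485%), with 1 at an unadjusted p under 0.05. After BB 0 of 5 rose and 0 fell at 6 h (10.3% of all genes higher, 7.09% lower), 48 h (1.37% and 1.22%) and 8 d (8.36% and 14.5%), with 2, 1 and 1 at an unadjusted p under 0.05. C1qb passed at 6 h after BB without BB rat 47 (−1.20, adjusted p = 0.00839) or without untreated rat 3 (−1.04, adjusted p = 0.0481). At 8 d after MRT C1qa, C1qb, C3 and Serping1 were higher, where 21.8% of all genes were higher and 26.1% lower. The median of the 5 differences was then 1.49 and that of all genes −0.04.

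C1q chains were highest in MRT tumours at 8 d. C1qa ranged from 8301 to 11649 (median 10713) in the 7 MRT tumours at 8 d, against 2070, 3793, 5099 and 7038 in untreated tumours. C1qb ranged from 4278 to 6655 (median 5654) in MRT tumours, against 937, 1690, 2844 and 3653 in untreated tumours. Neither pair of groups overlapped, and the differences were 1.31 ± 0.28 (adjusted p = 0.000115) for C1qa and 1.49 ± 0.35 (adjusted p = 0.000536) for C1qb. Their partner chain C1qc rose by 1.46 ± 0.34. In BB tumours at 8 d C1qa was 3212, 5285, 6581 and 11043, and C1qb was 1151, 1914, 3192 and 6696. Rat 55 thus reached the MRT range and the other 3 lay among the untreated tumours, and the differences from untreated were 0.53 ± 0.31 and 0.38 ± 0.40. Without rat 57 that of C1qa was 0.83 (adjusted p = 0.0395).

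Serping1 followed the C1q chains in tumours. At 8 d it ranged from 2398 to 5832 (median 3578) in MRT tumours, against 514, 658, 927 and 1255 in untreated tumours, and the groups did not overlap. The difference was 2.17 ± 0.46, or 4.50-fold (adjusted p = 0.000148). In BB tumours at 8 d Serping1 was 591, 1768, 2864 and 3242, a difference from untreated of 1.16 ± 0.52 (adjusted p = 0.0999). The 3 highest of these values exceeded every untreated tumour of that time, and without rat 57 the difference was 1.68 (adjusted p = 0.013). At 6 h single tumours stood out, with 3340 in BB rat 47 and 3175 in untreated rat 5, while the other BB and untreated tumours lay between 396 and 719.

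C3, the component on which all pathways converge, had the widest spread of the 5 among tumours at 8 d. It was 939 in MRT rat 34 and 3088 to 5896 in the other 6 MRT tumours, against 119, 434, 2570 and 4436 in untreated tumours. The groups overlapped, and the difference was 2.07 ± 0.62 (adjusted p = 0.00485). Without untreated rat 27, the tumour at 119, it was 1.11 (adjusted p = 0.139). In BB tumours at 8 d C3 was 779, 1018, 3547 and 3988, a difference of 1.06 ± 0.69, and of 1.84 (adjusted p = 0.0492) without untreated rat 29, the tumour at 4436. At 48 h C3 was low in MRT tumours, from 210 to 597 (median 382), against 395, 490, 1203 and 1764 in untreated tumours. That difference, −1.17 ± 0.60, did not pass (adjusted p = 0.357).

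Against untreated tumours, C1s did not rise with the other genes at 8 d after MRT. At 8 d it ranged from 2477 to 3559 (median 2738) in MRT tumours, against 2831, 2832, 4412 and 4537 in untreated tumours. The groups overlapped, with a difference of −0.28 ± 0.21 (adjusted p = 0.265). C1r, its partner, fell by 0.89 ± 0.26 in the same comparison.

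At 8 d after MRT many other cell markers moved in tumours alongside these genes. All 11 macrophage and monocyte markers rose, and their mean log2 was 10.5 to 11.9 in MRT tumours, against 8.47 to 9.65 in untreated tumours. All 10 T and NK cell markers rose, with means of 8.94 to 10.5 in MRT tumours, against 6.19 to 8.02 in untreated tumours. So did all 12 interferon response genes, with means of 10.3 to 11.9 in MRT tumours, against 8.53 to 9.44 in untreated tumours. Of 7 microglia markers 4 rose and 1 fell. Of 12 neuron markers 9 rose (9.38 to 11.4 in MRT tumours, against 8.09 to 9.79 in untreated tumours), and all 8 mitosis markers fell (8.05 to 10.2, against 10.8 to 11.0). Of the astrocyte markers 6 of 8 rose, of the oligodendrocyte markers 6 of 6, and of the matrix genes 7 of 8 fell (9.02 to 11.1 in MRT tumours, against 12.7 to 12.8). With the mean of the macrophage and microglia markers as a covariate 0 of the 5 genes passed. The macrophage and monocyte mean itself did not overlap between MRT and untreated tumours, so this fit cannot separate these cells from the irradiation. The part of these cells in the result was not tested.

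The differences from untreated tumours were also compared between times. The MRT effect at 8 d exceeded that at 6 h by 1.82 ± 0.37 for C1qa, 2.24 ± 0.47 for C1qb and 1.84 ± 0.62 for Serping1, so 3 of 5 passed where 12.3% of all genes were higher. The Serping1 call ended without untreated rat 5 (1.29, adjusted p = 0.102), without untreated rat 27 (1.63, adjusted p = 0.0724) and without MRT rats 37 and 38 (1.62, adjusted p = 0.0671), tumours with low mitosis and high neuron markers. For BB the same difference gave 0 of 5 (14.6% of all genes), with 2 at an unadjusted p under 0.05. It gave 2 of 5, C1qa (1.13) and C1qb (1.58), without BB rat 47 at 6 h, and the same 2 without untreated rat 29 or BB rat 57 at 8 d. In untreated tumours 8 d against 6 h gave 1 of 5, C1s, higher by 0.97 ± 0.22 (16% of all genes were higher).

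The effects in tumours were also compared step by step. From 6 h to 48 h the MRT effect changed for 0 of 5 genes (0.239% of all genes, 1 of the 5 at an unadjusted p under 0.05) and the BB effect for 0 of 5 (7.51%, 0 at an unadjusted p under 0.05). From 48 h to 8 d the MRT effect rose for 3 of 5 (11.2% of all genes higher), C3 by 3.24 ± 0.86 (adjusted p = 0.00514), C1qb by 1.31 ± 0.49 and C1qa by 0.99 ± 0.38, and fell for 1 of 5, C1s, by 0.76 ± 0.29 (18.9% of all genes lower). Mean log2 of C1s over that step went from 11.30 to 11.51 in MRT tumours and from 10.82 to 11.80 in untreated tumours. The C3 call held when untreated rats were left out singly. The C1qa call ended without untreated rats 15, 17, 18, 27 or 30, that of C1qb without 17, 18, 27 or 30, and that of C1s without 17, 18, 28 or 29, without MRT rats 37 and 38, and under a common median (−0.64, adjusted p = 0.0886). For BB the same step gave 0 of 5 (18.3% of all genes, 1 at an unadjusted p under 0.05), and 1, C3 (2.79, adjusted p = 0.0386), without untreated rat 29.

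Within the irradiated tumours themselves all 5 genes were higher at 8 d than at 6 h after MRT (5 of 5, 17.1% of all genes), from 0.59 ± 0.17 for C1s to 2.64 ± 0.28 for C1qb. After BB 2 of 5 were (8.44%), C1qb by 1.68 ± 0.36 and C1qa by 1.25 ± 0.28. From 8 d to 15 d C1s rose further after MRT, by 0.69 ± 0.21 (1 of 5, 16.1% of all genes higher, adjusted p = 0.051 without rat 41 at 15 d), and 0 of 5 passed after BB (1.7% of all genes, 1 at an unadjusted p under 0.05).

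None of the 5 genes passed between MRT and BB tumours at any time. The test gave 0 of 5 at 6 h (15.7% of all genes), 48 h (0%, with 515 of all genes at an unadjusted p under 0.05), 8 d (1.27%) and 15 d (3.05%). The members with an unadjusted p under 0.05 numbered 1, 0, 3 and 0. The largest differences were at 8 d, with 1.11 ± 0.35 for C1qb, 1.01 ± 0.62 for C3, 1.01 ± 0.46 for Serping1 and 0.78 ± 0.28 for C1qa. Without BB rat 55 at 8 d C1qb (1.56, adjusted p = 0.00315) and C1qa (1.08, adjusted p = 0.0106) passed. At 15 d C1qa was 5788, 6734, 6849 and 9031 in MRT tumours, against 7137, 7440, 7570 and 8529 in BB tumours.

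**Figure D2:**
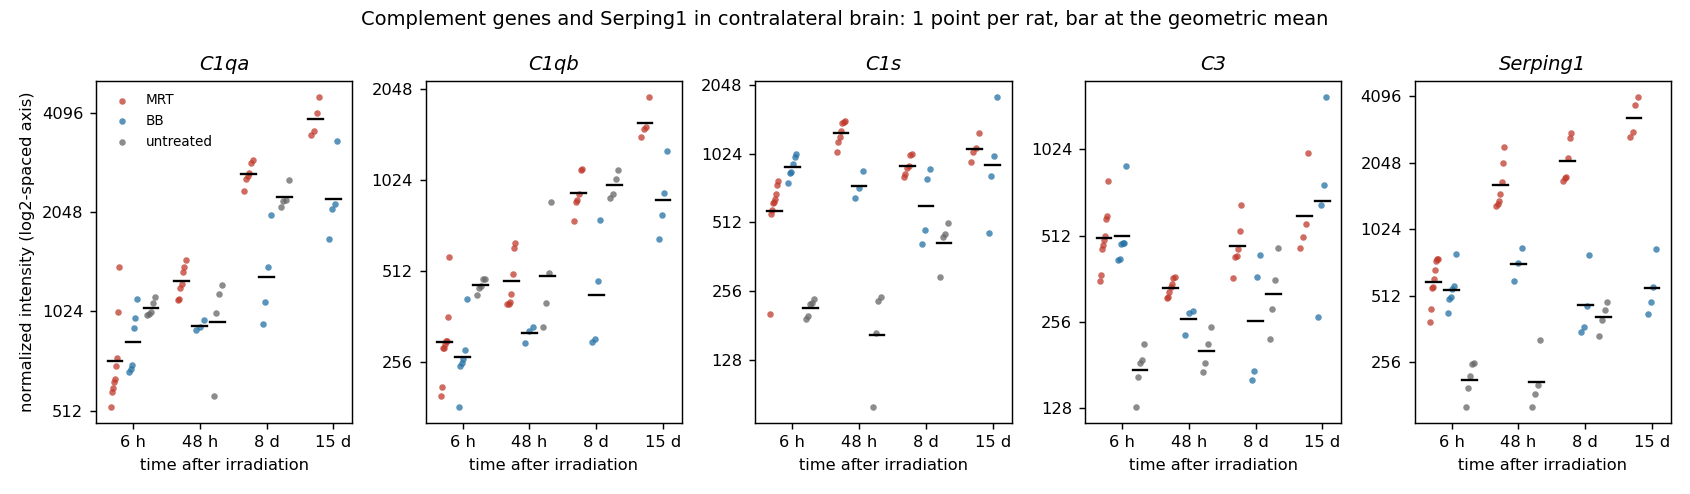
Normalized intensity (log2-spaced axis) of the 5 genes in contralateral brain against time after irradiation, 1 point per rat, with MRT, BB and untreated brain side by side and a bar at each geometric mean. Serping1 was 2669 to 4077 in MRT brain at 15 d, against 423 to 829 in BB brain.

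In contralateral brain the genes split: C1s, C3 and Serping1 were higher within 6 h of either beam, while C1qb was lower. At 6 h after MRT 3 of 5 rose (5.36% of all genes did) and 2 of 5 fell (2.86%). At 6 h after BB 3 of 5 rose (8.92%) and 1 of 5 fell (12.6%). At 48 h 3 of 5 rose after MRT (13.2%) and 2 of 5 after BB (6.46%). At 8 d 2 of 5 rose after MRT (5.71%), whereas after BB 2 of 5 fell (2.7%) and 0 rose (3.24%). The shares of all genes lower were 19% at 48 h and 2.19% at 8 d after MRT and 15.1% at 48 h after BB. At 48 h the median difference of all genes was −0.11 after MRT and −0.15 after BB. At 6 h, 48 h and 8 d the members with an unadjusted p under 0.05 numbered 5, 4 and 2 after MRT and 4, 3 and 2 after BB.

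Serping1 rose at 6 h, 48 h and 8 d after MRT and at 6 h and 48 h after BB. At 6 h it ranged from 389 to 752 (median 611) after MRT and from 429 to 793 (median 526.5) after BB, against 160, 196, 222, 251 and 254 in untreated brain. At 48 h it ranged from 1305 to 2409 (median 1471) after MRT and was 594, 722 and 837 after BB, against 160, 184, 202 and 322 in untreated brain. Neither irradiated group overlapped the untreated one at either time. The differences were 1.47 ± 0.19 at 6 h and 2.95 ± 0.21, or 7.73-fold, at 48 h after MRT, and 1.35 ± 0.20 and 1.76 ± 0.25 after BB, with adjusted p from 1.78e-15 to 1.95e-05. At 8 d Serping1 ranged from 1693 to 2790 (median 1950.5) after MRT and was 349, 369, 461 and 780 after BB, against 337, 399, 440 and 477 in untreated brain. The MRT brains stayed 5.08-fold above untreated (2.35 ± 0.21, adjusted p = 6.39e-12), while 3 of 4 BB brains lay within the untreated range and rat 55, at 780, above it (0.18 ± 0.24).

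C1s, which Serping1's product inhibits, had its highest mean after MRT at 48 h. At 15 d after MRT C1s ranged from 942 to 1264, overlapping 48 h, and these times were not tested against each other. At 6 h it ranged from 202 to 776 (median 627) after MRT and from 764 to 1026 (median 890) after BB, against 192, 199, 225, 226 and 237 in untreated brain. The 202 is rat 10, and the other 8 MRT brains, 559 or more, lay above every untreated one. The differences were 1.41 ± 0.23 after MRT and 2.06 ± 0.25 after BB. At 48 h C1s ranged from 1044 to 1433 (median 1288) after MRT and was 656, 722 and 857 after BB, against 79, 168, 231 and 240 in untreated brain. These groups did not overlap, with differences of 2.95 ± 0.26 and 2.17 ± 0.31. At 8 d C1s ranged from 812 to 1021 (median 895) after MRT and was 410, 474, 794 and 877 after BB, against 296, 443, 454 and 510 in untreated brain. The MRT difference was 1.12 ± 0.27 (adjusted p = 0.00314), and the BB difference, 0.54 ± 0.29, did not pass. Rat 10 was the lowest MRT brain of its time for Serping1 and C3 too.

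C3 rose at 6 h after both beams and at 48 h after MRT. At 6 h it ranged from 354 to 793 (median 493) after MRT and from 421 to 893 (median 479.5) after BB, against 129, 164, 184, 188 and 215 in untreated brain. All irradiated brains lay above all untreated ones, with differences of 1.53 ± 0.24 and 1.56 ± 0.26. At 48 h C3 ranged from 311 to 367 (median 340) after MRT, against 171, 184, 215 and 246 in untreated brain, a difference of 0.74 ± 0.27 (adjusted p = 0.0322). That call was near the threshold, with adjusted p of 0.0567 to 0.0722 when untreated rats 15, 16 or 18 were left out in turn. At 8 d C3 ranged from 363 to 655 (median 446.5) after MRT, against 223, 285, 357 and 463 in untreated brain, and that overlap went with a difference of 0.55 ± 0.28 (adjusted p = 0.262). After BB C3 was 231, 276 and 280 at 48 h (0.37 ± 0.33) and 161, 172, 366 and 438 at 8 d (−0.31 ± 0.31), and neither passed.

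At 6 h C1qb, and after MRT also C1qa, went the other way. At that time C1qb ranged from 198 to 572 (median 294) after MRT and from 182 to 413 (median 259) after BB, against 427, 452, 457, 482 and 483 in untreated brain. Every BB brain was below every untreated one, and so were all MRT brains but rat 10. The differences were −0.62 ± 0.20 (adjusted p = 0.0348) after MRT and −0.79 ± 0.21 (adjusted p = 0.00581) after BB. C1qa fell by 0.54 ± 0.17 after MRT (adjusted p = 0.0372), and its BB difference was −0.34 ± 0.18. Both MRT calls ended when any of untreated rats 1 to 5 was left out, with differences of −0.65 to −0.51 and adjusted p of 0.0553 to 0.0945. C1qc fell by 0.75 ± 0.20 and 0.85 ± 0.22 after MRT and BB. At 48 h neither C1qa nor C1qb passed after either beam. Mean log2 of C1qa was then 10.30 after MRT and 9.86 after BB, against 9.89 in untreated brain. That of C1qb was 8.89 and 8.32, against 8.94. Leaving out single arrays gave a limma adjusted p as low as 0.0354 for C1qa after MRT and 0.0258 for C1qb after BB. At 8 d C1qa was 2376 to 2961 (median 2668) after MRT and 936, 1091, 1397 and 2006 after BB, against 2126, 2223, 2234 and 2569 in untreated brain. BB brain was thus lower by 0.81 ± 0.22 (adjusted p = 0.0173), and C1qb by 1.21 ± 0.25 (adjusted p = 0.00332). Without the brains with high mitosis markers these were −0.88 (adjusted p = 0.0768) and −1.29 (adjusted p = 0.0221), and the C1qa call also ended without untreated rat 28 or BB rats 54 or 56.

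Untreated brain itself changed over the same days, which sets the level each irradiated group is read against. From 6 h to 8 d untreated contralateral brain gained 1.12 ± 0.20 in C1qa, 1.10 ± 0.24 in C1qb and 0.94 ± 0.22 in Serping1, so that 3 of 5 rose where 1.28% of all genes did. The Serping1 call ended without rat 28 (0.87, adjusted p = 0.0506). C1s (0.96 ± 0.28) and C3 (0.88 ± 0.29) missed the threshold with adjusted p of 0.0554 and 0.104, although the times did not overlap. In the same untreated brains 5 of 11 macrophage and monocyte markers rose (mean log2 6.99 to 7.43 at 8 d, against 6.20 to 6.59 at 6 h), 2 of 7 reactive astrocyte markers (6.83 to 7.18, against 6.22 to 6.58) and 3 of 8 matrix genes (8.76 to 10.8, against 8.10 to 8.44). Of 4 choroid plexus markers 0 passed, and their mean was 5.57, 5.63, 5.73 and 7.98 at 8 d, against 5.68 in rat 1 and 8.19 to 9.19 in the other 4 rats at 6 h. At 8 d that mean was 7.39 to 8.51 in MRT brain and 7.67 to 9.52 in BB brain. All untreated brains of 8 d but the one at 7.98 lay below both ranges, so irradiated and untreated brain of that time also differ in this marker. The part of these cells was not tested. The C1qa difference at 8 d after MRT, 0.24 ± 0.20, is thus set against a higher untreated level.

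Glial and immune markers moved with these genes in contralateral brain. At 6 h 6 of 7 microglia markers fell after MRT (mean log2 6.13 to 7.32, against 7.82 to 8.03 in untreated brain) and 5 of 7 after BB (6.48 to 6.91). Of 12 interferon response genes 12 rose after MRT and 11 after BB at 6 h, and of 7 reactive astrocyte markers 6 and 5 rose. Of 6 neutrophil markers 5 rose after MRT (5.03 to 6.89) and 2 after BB (5.20 to 5.40), against 4.69 to 4.88 in untreated brain. Of 8 acute phase and NF-kB cytokine genes 6 rose after MRT (6.90 to 8.58) and 4 after BB (6.74 to 7.03), against 5.44 to 5.66 in untreated brain. Of 7 endothelial markers 4 fell after MRT (6.87 to 7.95) and 3 after BB (7.14 to 7.92), against 7.97 to 8.15 in untreated brain. Macrophage and monocyte markers rose at 6 h for 7 of 11 after MRT and 6 of 11 after BB, and 1 fell after each. Of 10 T and NK cell markers 6 rose after MRT and 0 after BB. Rat 10 had the lowest interferon mean of the MRT brains, 7.91. At 48 h 9 of 11 macrophage and monocyte markers rose after MRT (8.05 to 8.23, against 6.25 to 7.05 in untreated brain) and 4 of 11 after BB (7.07 to 7.16). At 8 d 8 of 11 rose after MRT (8.53 to 8.77, against 6.99 to 7.43) and 3 of 11 after BB (7.00 to 8.29). With the macrophage and microglia mean as a covariate the MRT difference of Serping1 at 48 h kept its call and that of C3 at 48 h changed sign (−0.53, adjusted p = 0.219). The macrophage and monocyte mean did not overlap between these groups either, so that fit cannot separate these cells from the irradiation. Their part in the result was not tested.

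**Figure D3:**
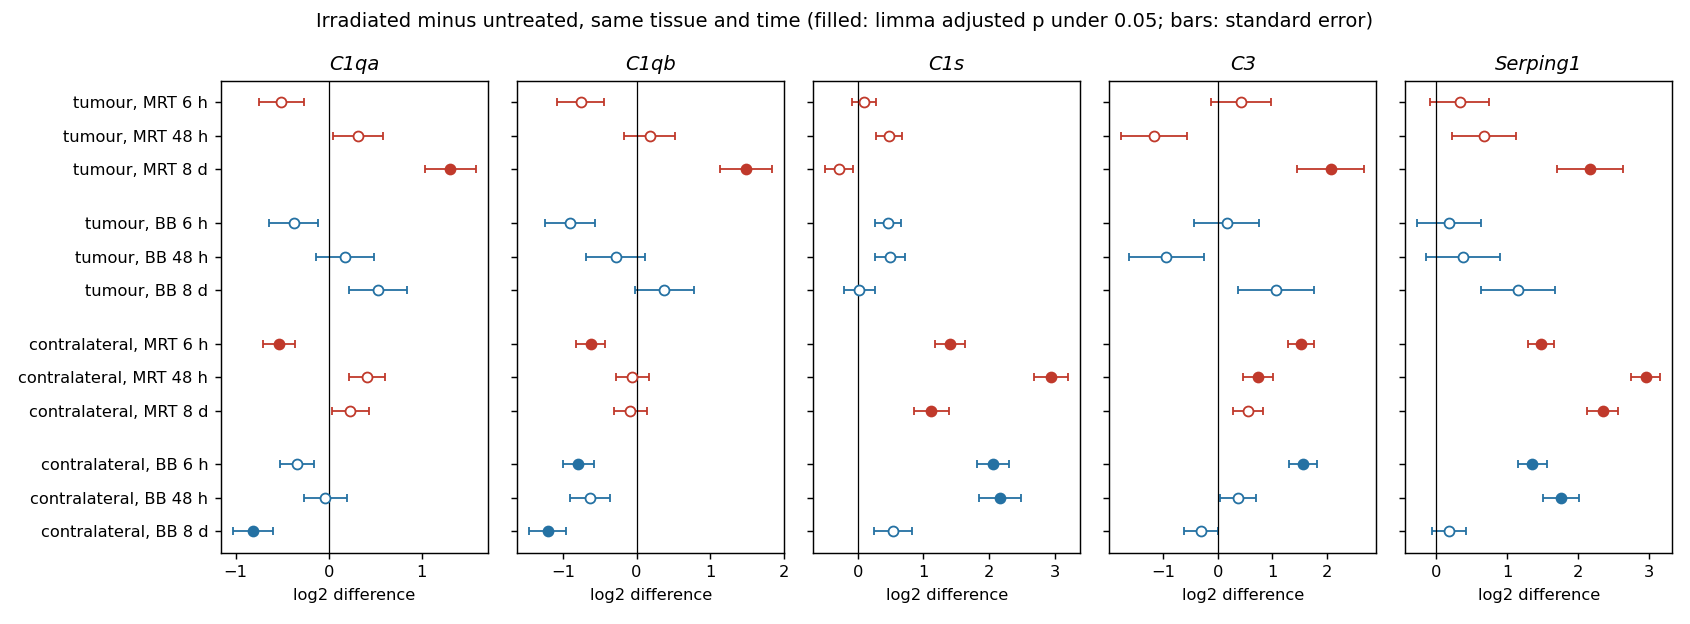
Log2 difference between irradiated and untreated tissue of the same time for each gene, with bars for the standard error, tumours above contralateral brain and MRT in red, BB in blue. Filled points passed limma's adjusted threshold. In contralateral brain Serping1 passed at all MRT times and at 6 h and 48 h after BB. In tumours it passed at 8 d after MRT alone.

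Calls between MRT and BB brain came from 48 h on, with the largest differences in Serping1. Whether the MRT minus BB difference changed between times was not tested. At 6 h 0 of 5 genes differed (5.39% of all genes, 1 of the 5 at an unadjusted p under 0.05, C1s at −0.65 ± 0.22). At 48 h 1 of 5 was higher after MRT (1.67%), at 8 d 3 of 5 (2.6%) and at 15 d 3 of 5 (4.11%). At 15 d Serping1 was 2669, 2826, 3732 and 4077 in MRT brain, against 423, 478, 560 and 829 in BB brain, with a wide gap between them. The MRT minus BB difference of Serping1 was 1.19 ± 0.23 at 48 h, 2.17 ± 0.21 at 8 d and 2.56 ± 0.24, or 5.91-fold, at 15 d (adjusted p = 0.00111, 5.37e-10 and 5.5e-11). C1qa was higher by 1.05 ± 0.20 at 8 d and 0.80 ± 0.22 at 15 d, and C1qb by 1.12 ± 0.23 and 0.84 ± 0.25. At 15 d C1qa was 3511, 3622, 4094 and 4603 in MRT brain, against 1701, 2090, 2164 and 3367 in BB brain. Of the 4 BB brains of 15 d, 3 carry the high mitosis markers. Without them only rat 58 is left, so that group has no spread of its own and the fit gives it that of the other groups. The differences from rat 58 alone were 1.21 (adjusted p = 0.0551) for C1qa, 1.28 (adjusted p = 0.117) for C1qb and 2.95 for Serping1. Both C1q calls at 15 d also ended when MRT rats 41 or 42, or BB rats 58 or 59, were left out in turn, with differences of 0.67 to 0.86.

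**Figure D4:**
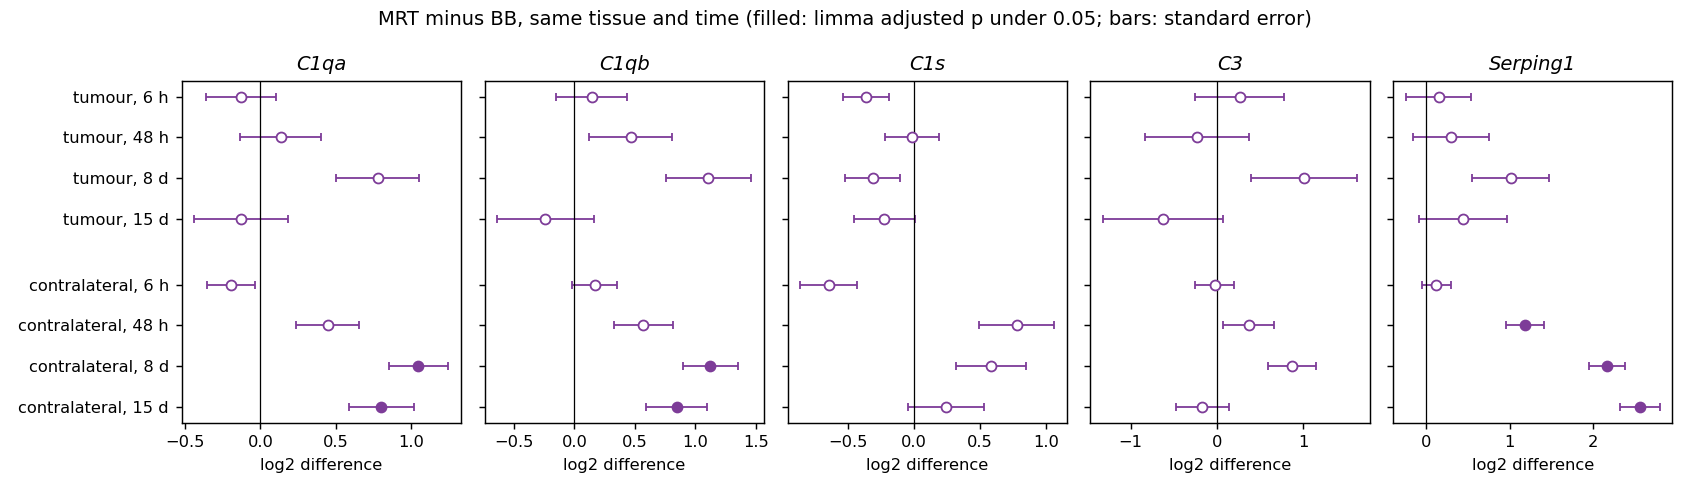
Log2 difference between MRT and BB tissue of the same time for each gene, with bars for the standard error, tumours above contralateral brain. Filled points passed limma's adjusted threshold, which no tumour comparison did, while Serping1 in contralateral brain passed at 48 h, 8 d and 15 d.

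The steps between times were tested as well, against the change in untreated brain up to 8 d. The MRT effect at 48 h exceeded that at 6 h by 1.53 ± 0.34 for C1s, 1.48 ± 0.28 for Serping1 and 0.94 ± 0.26 for C1qa (3 of 5, 3.22% of all genes higher), the last not without untreated rat 18 (0.70, adjusted p = 0.105). From 48 h to 8 d the MRT effect on C1s shrank by 1.83 ± 0.37 (1 of 5, 0.373% of all genes lower), and that on Serping1 changed by −0.60 ± 0.30, which did not pass. Mean log2 of C1s over that step went from 10.31 to 9.83 in MRT brain and from 7.36 to 8.71 in untreated brain. The larger part of the C1s change thus lay in the untreated level. For BB 0 of 5 differed between 6 h and 48 h (9.35% of all genes, 1 at an unadjusted p under 0.05), and 1, C3, without untreated rats 15 (−1.27) or 16 (−1.23). From 48 h to 8 d the BB effect shrank by 1.63 ± 0.43 for C1s and 1.59 ± 0.35 for Serping1 (2 of 5, 0.675% of all genes lower). In BB brain the means went from 9.53 to 9.24 for C1s and from 9.47 to 8.86 for Serping1. That of Serping1 in untreated brain went from 7.71 to 8.68. The C1s call ended when any of untreated rats 18 or 30, or BB rats 50, 51, 52 or 54, was left out.

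Over the whole span from 6 h to 8 d the MRT effect changed for 0 of 5 genes (3.61% of all genes, 3 of the 5 at an unadjusted p under 0.05), with Serping1 at 0.87 ± 0.28 (adjusted p = 0.0773), C1qa at 0.77 ± 0.26 (adjusted p = 0.0956) and C3 at −0.98 ± 0.37 (adjusted p = 0.167). C1qa passed without MRT rat 10 (0.89, adjusted p = 0.0128), Serping1 without untreated rat 1 (0.98, adjusted p = 0.0433) and C3 without the brains with high mitosis markers (−1.15, adjusted p = 0.0234). The BB effect fell for 3 of 5 (1.15% of all genes lower), C3 by 1.87 ± 0.40 (adjusted p = 0.00438), C1s by 1.52 ± 0.38 (adjusted p = 0.0192) and Serping1 by 1.17 ± 0.31 (adjusted p = 0.0279). The C3 call held when rats of groups of 5 or fewer were left out singly, that of C1s ended without untreated rat 30 or BB rats 54 or 56, and that of Serping1 without untreated rats 1, 28 or 39 or BB rats 54 or 56.

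Within irradiated brain 4 of 5 genes were higher at 8 d than at 6 h after MRT (8.24% of all genes), C1qa by 1.89 ± 0.16, Serping1 by 1.81 ± 0.18, C1qb by 1.64 ± 0.19 and C1s by 0.67 ± 0.22, the last not without MRT rat 10 (0.48, adjusted p = 0.088). C3 differed by −0.09 ± 0.23. After BB 1 of 5, C3, was lower at 8 d by 0.98 ± 0.28 (1.13% of all genes lower), though not without BB rats 54 (−0.79, adjusted p = 0.222) or 56 (−0.76, adjusted p = 0.163). Without rat 56 C1qa (0.81, adjusted p = 0.0165) and C1qb (0.84, adjusted p = 0.0381) were higher at 8 d. From 8 d to 15 d 0 of 5 passed in MRT brain (0.0633% of all genes, 3 at an unadjusted p under 0.05), with Serping1 at 0.65 ± 0.21. In BB brain 3 of 5 rose (0.64% of all genes), C3 by 1.39 ± 0.31, C1qb by 1.05 ± 0.25 and C1qa by 0.79 ± 0.22. Without the brains with high mitosis markers, rats 57 and 59 to 61 here, the 15 d group is rat 58 alone, and the differences of that single brain, its spread taken from the other groups, were 0.21, 0.67 and 0.42, none of which passed. Leaving out any 1 of rats 54, 56, 59 or 60 also gave 0 of 5.

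Whether a beam gave the same difference in both tissues was tested directly. For C1s the effect in tumour was smaller than in contralateral brain by 1.31 ± 0.30 at 6 h (1 of 5 lower, 0.767% of all genes), 2.47 ± 0.33 at 48 h and 1.41 ± 0.34 at 8 d after MRT. At 48 h the effect on Serping1 was also smaller in tumour, by 2.28 ± 0.51 (2 of 5 lower, 1.03% of all genes). With the rat as a replicate block, C3 joined them at 48 h (−1.92, adjusted p = 0.0462, against −1.91 ± 0.68 and 0.0989 without the block). At 8 d after MRT the effect on C1qa (1.08 ± 0.35) and C1qb (1.57 ± 0.43) was larger in tumour (2 of 5 higher, 15.4% of all genes) and that on C1s smaller (1 of 5 lower, 21.6% of all genes). The C1qa call ended without untreated tumour rat 27 (0.75, adjusted p = 0.0938). Serping1 at 8 d, risen in both tissues, differed by −0.18 ± 0.53. For BB the effect on C1s was smaller in tumour at 6 h by 1.59 ± 0.32 (1 of 5, 0.837% of all genes) and at 48 h by 1.68 ± 0.39 (1 of 5, 1.24% of all genes), though not at 48 h without untreated contralateral rat 18 (−1.32, adjusted p = 0.075). At 8 d the effects on C1qa (1.34 ± 0.39) and C1qb (1.59 ± 0.48) were larger in tumour (2 of 5, 2.24% of all genes), and both calls ended when untreated tumour rat 27, BB tumour rat 55 or BB contralateral rat 56 was left out.

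The order of the group means is given for Serping1 and C1qa in contralateral brain and for C1qa and C1s in tumours. In contralateral brain Serping1 averaged 11.68 ± 0.30, 11.02 ± 0.32 and 10.66 ± 0.34 log2 (SD) at 15 d, 8 d and 48 h after MRT, followed by BB at 48 h (9.47 ± 0.25), MRT at 6 h (9.21 ± 0.34), and BB at 15 d (9.11 ± 0.42). The lowest means were those of untreated brain at 6 h and 48 h, 7.74 ± 0.28 and 7.71 ± 0.44, which lie within each other's SD. C1qa was highest at 15 d after MRT (11.94 ± 0.18), then at 8 d after MRT (11.39 ± 0.11), in untreated brain at 8 d (11.16 ± 0.12) and in BB brain at 15 d (11.14 ± 0.41). The last 3 differ by less than the BB spread. In tumours C1qa was highest at 8 d after MRT (13.31 ± 0.18), ahead of BB at 15 d (12.90 ± 0.11) and MRT at 15 d (12.77 ± 0.27), and lowest at 6 h after MRT (11.16 ± 0.60). C1s in tumours was highest at 15 d after BB (12.42 ± 0.32) and MRT (12.20 ± 0.30), which overlap.

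Of 43 other complement genes listed, 33 were measured, and 6 of 7 receptors rose at 8 d after MRT in both tissues. In tumours at that time 13 of 33 rose (21.8% of all genes did) and 5 fell (26.1%). Fcnb, a ficolin that starts the lectin pathway, rose by 2.68 ± 0.54, C5ar1, the C5a receptor, by 2.30 ± 0.36, and Itgax, a chain of complement receptor 4, by 2.17 ± 0.34. After BB at 8 d 5 of 33 rose (8.36% of all genes) and 2 fell (14.5%), with Fcnb (1.81 ± 0.61), Itgax (1.61 ± 0.39) and C5ar1 (1.34 ± 0.41) leading. At 48 h in tumours 4 rose after MRT (1.86% of all genes), Fcnb (2.09 ± 0.53), Itgax (1.82 ± 0.33) and C5ar1 (1.79 ± 0.35) among them, and 1 after BB (1.37%), Itgax (1.88 ± 0.39). At 6 h in tumours 1 rose after MRT (1.01%), Fcnb (1.81 ± 0.48), and 2 after BB (10.3%), C8b (0.39 ± 0.12), a chain of the membrane attack complex, and the regulator Cd46 (0.31 ± 0.10). Both of these were dim and overlapped the untreated tumours. Their mean log2 was 5.07 after BB against 4.69 untreated for C8b, and 5.20 against 4.88 for Cd46.

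**Figure D5:**
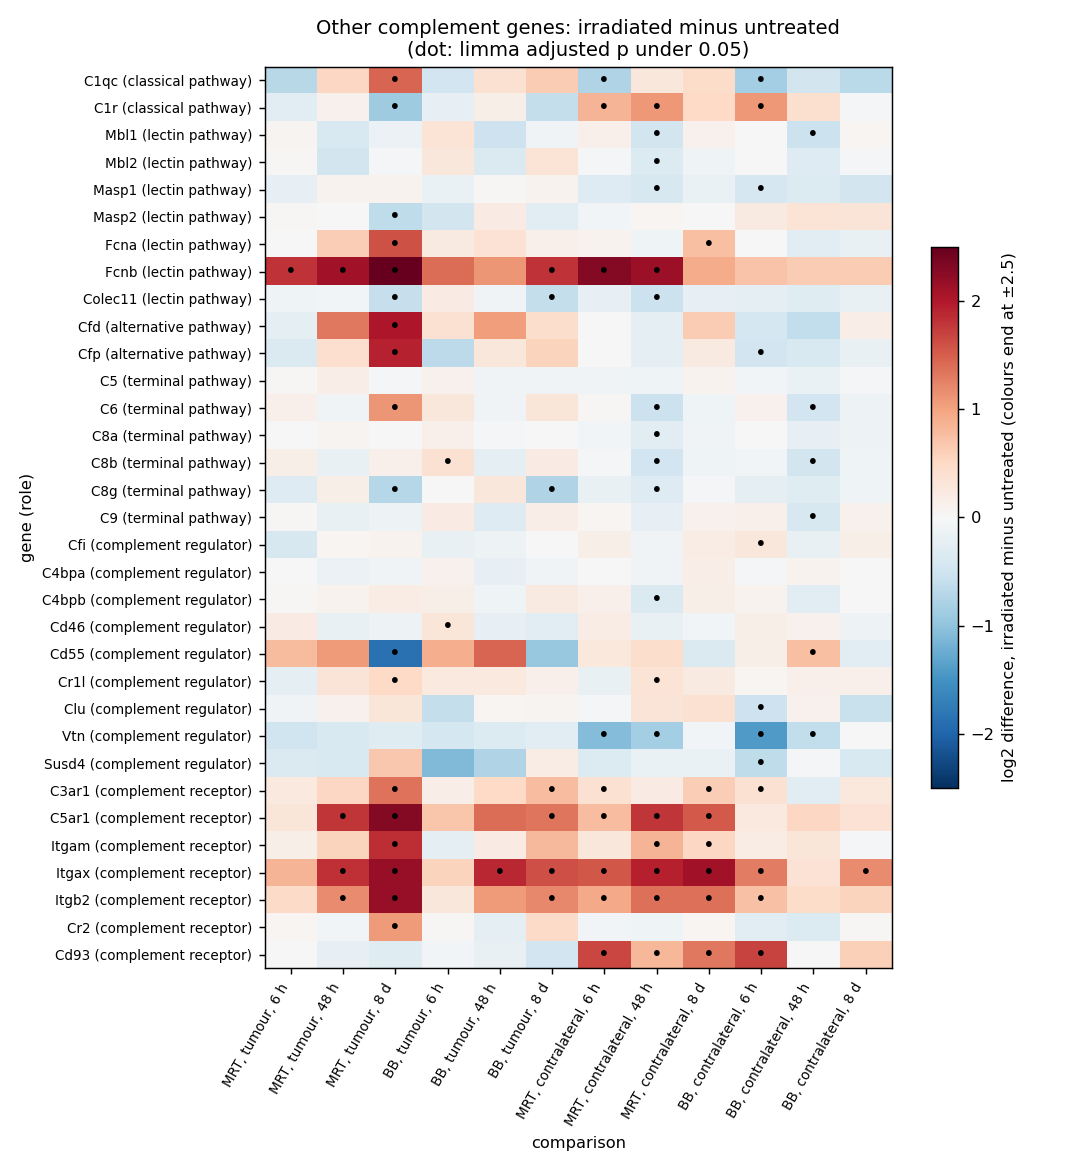
Log2 difference, irradiated minus untreated, of the 33 other complement genes (rows, with their role) in 12 comparisons (columns, tumours left of contralateral brain), red for higher and blue for lower, with a dot where limma's adjusted threshold was passed. Receptors such as Itgax, Itgb2 and C5ar1 are the red rows near the bottom.

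In contralateral brain 7 of the 33 rose (5.36% of all genes) and 2 fell (2.86%) at 6 h after MRT, 8 rose (13.2%) and 10 fell (19%) at 48 h, and 7 rose (5.71%) and 0 fell (2.19%) at 8 d. At 6 h Fcnb (2.29 ± 0.34), Cd93 (1.67 ± 0.19), first described as a C1q receptor, and Itgax (1.55 ± 0.24) led. At 48 h the leaders were Fcnb (2.14 ± 0.39), Itgax (1.94 ± 0.27) and C5ar1 (1.79 ± 0.21). At 8 d 6 of 7 receptors rose, led by Itgax (2.10 ± 0.28), C5ar1 (1.54 ± 0.22) and Itgb2 (1.37 ± 0.23), the beta chain shared by complement receptors 3 and 4. After BB 6 rose (8.92%) and 6 fell (12.6%) at 6 h, with Cd93 (1.69 ± 0.21) and Itgax (1.28 ± 0.26) higher and Vtn, the terminal pathway regulator vitronectin, lower by 1.42 ± 0.17. At 48 h after BB 1 rose (6.46%), Cd55 (0.75 ± 0.22), a regulator of C3 convertases, and 5 fell (15.1%), among them Vtn (−0.62 ± 0.21) and Mbl1 (−0.54 ± 0.10), a mannose-binding lectin. At 8 d after BB 1 rose (3.24%), Itgax (1.19 ± 0.30), with overlap between the groups. Itgax was dim in this tissue. In the comparisons that name it here, its mean log2 was 4.48 to 4.70 in untreated and 5.75 to 6.68 in irradiated brain. C1r rose with C1s at 6 h after MRT (0.86 ± 0.16) and BB (1.09 ± 0.17) and at 48 h after MRT (1.08 ± 0.18). Medians over the 33 genes were between −0.20 and 0.15 in these 12 comparisons.

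The genes with the most similar pattern were found by Pearson's r of log2 values over all arrays of a tissue, which share treatment and time. In tumours (59 arrays) C1qa was most like C1qc (0.978), C1qb (0.961) and Cd33 (0.953), and C1qb like C1qa, C1qc (0.955) and RT1-DMa (0.947). In contralateral brain (56 arrays) C1qa was most like C1qc (0.957), C1qb (0.906) and Fcrl2 (0.904), and C1qb like C1qc (0.951), C1qa and Fcrl2 (0.869). Serping1 changed its neighbours with the tissue. In contralateral brain they were Gpnmb (0.950), Lgals3 (0.946) and Rab13 (0.934), of which Gpnmb and Lgals3 are on the macrophage marker list, and in tumours Clec7a (0.878), Itgb2 (0.868) and Cyba (0.859). C3 was most like the immunoproteasome genes Psmb9 (0.881), Psme2 (0.851) and Psmb8 (0.847) in contralateral brain, and like Ctss (0.874), Anxa3 (0.861) and Gpr84 (0.833) in tumours. C1s was most like Clic1 (0.871), Mybl1 (0.871) and C1r (0.853) in contralateral brain, and like Tmem106a (0.828), Erap1 (0.827) and Sp100 (0.820) in tumours.

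Among the 5 genes C1qa and C1qb were the closest pair in both tissues, and the other pairs differed by tissue. In tumours Serping1 had r of 0.802 with C1qa and 0.347 with C1s. In contralateral brain the order was turned, with 0.770 for Serping1 and C1s and 0.525 for Serping1 and C1qa. C1s and C1qb had r of 0.569 in tumours and 0.106 in contralateral brain. These are descriptions of the arrays, and no difference between them was tested.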

How the data were processed

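Affymetrix arrays were hybridised by the authors with biotin-labelled RNA from 200 ng of total RNA per sample, per the labels' protocols. Affymetrix Expression Console with MAS5 and RMA made the values, per the submitters' processing notes, which name RMA alone for the 35 BB arrays and give no versions. The authors deposited normalized intensity in whole numbers from 7 to 27837, with array medians from 117 to 165; log2 was taken here. For arrays, the number of arrays limits the precision.

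Of 31099 probe sets, the 57 controls, the 436 that name several genes and the 9780 that name no gene were dropped. The probe set brightest in mean log2 over all arrays stood for each of 14217 genes. limma 3.58.1 (R 4.3.3; data.table, version 1.17.8) fitted a mean per group within each tissue, and over all 115 arrays where tissues were compared, with intensity-trended empirical Bayes variances and Benjamini-Hochberg adjustment over all genes in each comparison. Python 3.11.15, numpy 2.4.6, pandas 2.3.3 and matplotlib 3.10.9 did the rest. The fit was tested on simulated data. Of 60 comparisons fitted, 49 are described, and the 11 of tumour against contralateral brain within single treatment and time groups are not.

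Genes other than the 5 were named by rule: in each comparison with untreated tissue, at most 3 called complement genes with the largest absolute difference, and for each of the 5 the 3 genes of highest r in each tissue. C1qc and C1r, partners of the 5, were named after their values were seen. The members and lists were chosen with earlier results of these data known, and 8 comparisons of effects between times were added after seeing the data. The rat number pairs the tissues, since 55 of 60 rats gave both. The deviations from the group means correlated above 0.1 in 38 of these 55 (median 0.186), so a fit with the rat as a replicate block was run (estimated correlation 0.157). Further alternatives were other scalings, filters, probe set rules, variance priors, array weights, covariates, sets of groups and sets of arrays.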

Additional observations from a re-analysis of the deposited data

Results flagged for a closer look

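Of 105 groups of 4 to 10 values, 6 held a value far from the rest of its group, which is near the share of about 1 in 20 that chance gives. Tumours at 6 h gave 3 of them. C1qb was 324 in MRT rat 6, Serping1 was 3340 in BB rat 47, and Serping1 was 3175 in untreated rat 5. In MRT tumours at 8 d C3 was 939 in rat 34. In contralateral brain at 6 h C1s was 202 in MRT rat 10 and C3 was 893 in BB rat 47.

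The effect of a beam differed between tissues or times, by limma's test of the difference itself, in 26 of 90 tests. The share of all genes called in these comparisons ran from 0.239% to 37%. It was 37% for the MRT tissue difference at 8 d. In tumours it was 27.5% for the MRT effect at 8 d minus 6 h and 30.1% for that at 8 d minus 48 h. C1s had a smaller MRT effect in tumour than in contralateral brain at 6 h (−1.31), 48 h (−2.47) and 8 d (−1.41), and a smaller BB effect at 6 h (−1.59) and 48 h (−1.68). Serping1 had a smaller MRT effect in tumour at 48 h (−2.28). C1qa and C1qb had a larger effect in tumour at 8 d after MRT (1.08 and 1.57) and after BB (1.34 and 1.59). Within tumours the MRT effect was larger at 8 d than at 6 h for C1qa (1.82), C1qb (2.24) and Serping1 (1.84), and larger at 8 d than at 48 h for C1qa (0.99), C1qb (1.31) and C3 (3.24) and smaller for C1s (−0.76). In contralateral brain the MRT effect was larger at 48 h than at 6 h for C1qa (0.94), C1s (1.53) and Serping1 (1.48), and smaller at 8 d than at 48 h for C1s (−1.83). The BB effect there was smaller at 8 d than at 48 h for C1s (−1.63) and Serping1 (−1.59), and smaller at 8 d than at 6 h for C1s (−1.52), C3 (−1.87) and Serping1 (−1.17).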

How the results depend on the processing

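The counts of called genes among the 5 in 49 comparisons kept within 1.5 times of their value under a constant variance prior and the mean of all probe sets per gene. Under quantile normalization, and with the dimmest 30 percent of genes left out, all but 1 did, that of BB brain at 8 d against 6 h (2 in place of 1). With the rat as a replicate block the counts in 7 comparisons between tissues also stayed, and 1 single call changed, that of C3 in the MRT difference at 48 h (−1.92, adjusted p = 0.0462). Each gene has 1 probe set, so the alternative with other probe sets of the same gene was not run. Unless a value or the removal of arrays shows it, the cause of a change was not tested.

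Macrophage and microglia markers as a covariate left 0 calls for MRT tumours at 8 d, for their 8 d minus 6 h effect, for MRT and BB tumours at 8 d against 6 h, for MRT against BB brain at 48 h, for untreated brain over time, for BB brain from 8 d to 15 d and for the BB tissue difference at 8 d. It left 1 for MRT brain at 8 d against 6 h, the MRT tumour step from 48 h to 8 d, untreated tumour against brain, MRT brain at 8 d, MRT against BB brain at 8 d, the MRT step from 6 h to 48 h and the BB step from 48 h to 8 d, and 3 for MRT brain at 6 h. It raised the count to 1 for the MRT tumour step from 6 h to 48 h, the MRT brain effect at 8 d minus 6 h, MRT tumours at 48 h, BB tumours at 6 h, MRT against BB brain at 6 h and the BB step from 6 h to 48 h, and to 2 for BB brain at 8 d against 6 h and the BB tissue difference at 48 h. Under it 8 called differences changed sign: C3 in MRT tumours at 8 d (−0.23), C3 in MRT brain at 48 h (−0.53), C3 between untreated tissues (−0.085), Serping1 in the MRT tumour effect at 8 d minus 6 h (−0.24), C3 (−1.77) and Serping1 (−0.50) in MRT tumours at 8 d against 6 h, C1s in MRT brain at 8 d against 6 h (−0.65) and C1qa in the MRT brain step from 6 h to 48 h (−0.17). Neuron markers as a covariate left 0 calls for the MRT tumour step from 48 h to 8 d, untreated tumours over time, BB brain at 8 d and the BB tissue difference at 8 d, and ended the call of C3 in MRT tumours at 8 d (1.35, adjusted p = 0.092).

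Array weights raised 17 counts, to 5 for BB tumours at 8 d, BB tumours at 8 d against 6 h and untreated brain over time, to 4 for MRT against BB tumours at 8 d, to 2 for MRT tumours at 6 h, MRT against BB brain at 6 h and the BB tissue difference at 48 h, to 1 for the BB tumour step from 48 h to 8 d, and to 3 for the other 9. Fitting the groups of a comparison alone gave 0 for BB tumours and BB brain at 8 d against 6 h, BB brain at 48 h, BB brain from 8 d to 15 d, the MRT tissue difference at 6 h, the BB tissue differences at 48 h and 8 d and the BB step from 48 h to 8 d. It gave 3 for MRT tumours from 8 d to 15 d and MRT brain at 6 h, 4 for MRT against BB brain at 48 h, 2 for MRT brain from 8 d to 15 d and the MRT brain effect at 8 d minus 6 h and 1 for the BB step from 6 h to 48 h. A common median gave 1 in place of 0 for BB tumours at 6 h, MRT against BB brain at 6 h and the BB step from 6 h to 48 h. Without BB tumour 6 h rat 47 the counts were 1 for BB tumours at 6 h and 2 for the BB tumour effect at 8 d minus 6 h. Without the 5 brains with high mitosis markers they were 0 for BB brain from 8 d to 15 d and 1 for MRT against BB brain at 15 d, where BB brain at 15 d is then 1 array and is assumed to vary like the other groups, and 1 for BB brain at 8 d, the MRT brain effect at 8 d minus 6 h, the BB tissue difference at 8 d and the BB step from 48 h to 8 d.

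Without MRT rat 10 the MRT brain effect at 8 d minus 6 h gave 1. Leaving out single arrays from groups of 5 or fewer moved 18 counts. The ranges were 0 to 2 for BB brain at 8 d against 6 h, 0 to 1 for the MRT and 1 to 3 for the BB brain effect at 8 d minus 6 h, 1 to 4 for the MRT and 0 to 1 for the BB tumour step from 48 h to 8 d, 0 to 3 for BB brain from 8 d to 15 d, 0 to 1 for MRT tumours from 8 d to 15 d, 1 to 2 for BB brain at 8 d, 0 to 1 for BB tumours at 6 h, 0 to 2 for BB tumours at 8 d, 0 to 1 for the BB step from 6 h to 48 h, 1 to 2 for the BB step from 48 h to 8 d, 0 to 2 for the BB tumour effect at 8 d minus 6 h, 0 to 1 for the BB tissue difference at 48 h, 0 to 3 for that at 8 d, 1 to 3 for MRT against BB brain at 15 d, 0 to 2 for MRT against BB tumours at 8 d, and 3 in each case for MRT brain at 6 h. The count of all genes called moved by over 1.5 times in 37 of 49 comparisons under array weights, 29 with the groups of a comparison alone, 23 with the macrophage and microglia covariate, 22 with the neuron covariate, 11 without the dimmest genes, 6 under quantile normalization and 5 at a common median, and in 0 with the constant prior or the mean of all probe sets. Small groups (3 to 9 arrays) limit what could be called, and BB cannot be told apart from the separate handling of its arrays.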
